A study of Mus musculus with 23 samples.

Results

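The 8 genes described here are 6 caspases (Casp1, Casp2, Casp6, Casp8, Casp9 and Casp12), the adaptor Apaf1 and the pore former Gsdmd. They were chosen by name, with earlier results of these data known. Each was found on the array through the accession of its probe, giving 8 of the 37163 genes or other named transcripts on the array. Liver RNA came from 23 female mice of the hybrid strain B6C3F1, a common choice for cancer bioassays, which were bought at 5 to 6 weeks of age and acclimatised for at least 7 days. The control group of 5 animals received corn oil by gavage, and the other groups received furan in corn oil at 1 mg/kg (4 animals), 2 mg/kg (5 animals), 4 mg/kg (4 animals) or 8 mg/kg body weight (5 animals). Dosing lasted 21 days in all groups, and livers were collected 4 h after the final gavage. The series concerns cell death and regrowth in livers exposed to furan, and each dose was set against the corn oil controls. Each array carried liver RNA in the Cy5 dye and a universal mouse reference RNA in the Cy3 dye, with no dye swap, so a value below is a log2 ratio of liver to that reference. A ratio compares arrays for 1 gene and does not rank 1 gene above another.

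Caspases are cysteine proteases that lie dormant as zymogens and cut their substrates after aspartate once activated. Initiator caspases are activated by clustering on adaptors: Casp9 on the apoptosome that Apaf1 builds with cytochrome c, Casp8 on death receptors, and Casp2 on a complex with Pidd1 and Cradd. Executioner caspases, among them Casp6, then take the cell apart, whereas inflammatory caspases such as Casp1 mature interleukins and cut gasdermin D, whose freed part forms pores in the plasma membrane. The activity of caspases and gasdermin D is set mainly by clustering or cleavage of the protein, which an array of transcripts does not measure.

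The promoter windows of Casp9 and Casp6 are shown because these caspases had lower transcript at the highest dose, described further on. Each runs from 250 bases before the transcription start to 50 bases after it, from RefSeq on build GRCm38.p6, and 7 of the 8 genes had an entry. Capitals mark every GC box, GGGCGG or its complement, a short motif known to be bound by Sp1-type factors.

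Casp9, chr4:141793362-141793661, plus strand: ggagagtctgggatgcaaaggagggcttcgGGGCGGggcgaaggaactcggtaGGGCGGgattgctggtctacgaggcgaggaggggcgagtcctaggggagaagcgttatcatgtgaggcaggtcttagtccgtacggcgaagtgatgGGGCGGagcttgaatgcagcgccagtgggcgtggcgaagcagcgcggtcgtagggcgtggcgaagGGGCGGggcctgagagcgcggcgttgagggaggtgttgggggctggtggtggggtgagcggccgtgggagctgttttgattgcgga
Casp6, chr3:129901165-129901464, plus strand: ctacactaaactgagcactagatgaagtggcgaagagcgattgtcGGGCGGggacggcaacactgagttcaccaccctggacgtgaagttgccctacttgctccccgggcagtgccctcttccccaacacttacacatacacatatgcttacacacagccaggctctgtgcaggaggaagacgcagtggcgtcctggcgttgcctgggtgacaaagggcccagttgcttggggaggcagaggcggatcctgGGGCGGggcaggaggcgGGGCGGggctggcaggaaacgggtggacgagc

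The Casp9 window held 4 GC boxes and 28 CpG dinucleotides, and the Casp6 window held 3 GC boxes and 16 CpG dinucleotides. A GC box stood in 35.7% of the 32851 windows of the table, whose median was 7 CpG dinucleotides. Casp2 had 2 GC boxes and 26 CpG dinucleotides, and Apaf1 had 3 and 46. The windows of Casp8, Casp1 and Casp12 had 0 GC boxes and 5, 3 and 3 CpG dinucleotides. Other motifs were searched on both strands, with their share of all windows: the CCAAT box (CCAAT, 37.4%), the TATA box (TATAAA, 13.6%), the E-box (CACGTG, 7.15%), the AP-1 site (TGANTCA, 7.81%) and the core of the antioxidant response element (TGACNNNGC, 12.4%). None of these 5 matched in the Casp9 or Casp6 window. Elsewhere the CCAAT box matched in Casp2 (2), Casp8 (1) and Casp12 (2), the E-box in Casp1 (1) and the antioxidant core in Casp12 (1). A match describes letters in the window and not a bound site. Casp1 and Casp12 lie close together on chromosome 9, with Casp4 between them in the gene table.

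Each of the 8 genes was read by 1 probe, and the Gsdmd probe was printed on 10 spots of every array. In Cy5 the probes of Casp2, Casp8, Casp9, Casp6, Casp1 and Gsdmd were well above background on 23 of 23 arrays, with 0 saturated spots. The Apaf1 probe was well above background on 9 of 23 arrays and the Casp12 probe on 1 of 23, so neither passed the filter on dim probes and both are described separately. That left 6 of the 8 genes among the 19899 tested, and these 6 passed in every group, not through a single group in which they were high. All 8 hepatocyte markers also passed the filter, as a check of the labelled tissue. Per array, 22011 to 30120 probes gave a Cy5 signal well above background, and the number of arrays limits the precision. Of the 5 slides used, slide 2 lacked a control, slide 3 an animal at 4 mg/kg and slide 5 an animal at 1 mg/kg. On slide 3 the hepatocyte markers averaged 0.69 to 1.02 above the control mean on its 4 arrays, against at most 0.25 elsewhere. The same arrays were also highest on 3 tested of 5 erythrocyte markers, at 0.50 to 0.84 against at most 0.19 elsewhere. Their Kupffer cell markers stood at 0.22 to 0.48, within the range of the other arrays. Results were therefore also computed without slide 3. Of 11 pancreatic enzyme markers 3 were tested, and they stood at 1.62 to 2.50 on 4 arrays (replicates 1 and 5 at 2 mg/kg, replicate 1 at 4 mg/kg and replicate 5 at 8 mg/kg), against at most 0.62 elsewhere; without these arrays the calls of Casp9, Casp6 and Gsdmd at 8 mg/kg were kept.

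At 8 mg/kg, 3 of the 6 tested genes were lower than in controls and 0 were higher: the initiator Casp9, the executioner Casp6 and the pore former Gsdmd. Over all genes tested, 8.01% were called at this dose and 3.76% were called lower (limma, Benjamini-Hochberg adjusted p under 0.05). Since the members were chosen with earlier results of these data known, their count beside these shares is a description and not a test. Median centring in place of loess called 26.6% of the called genes lower, against 47.0% here, and these 3 genes stayed lower with it. Their direction was also kept under the other settings, but several of these could not move the difference of a gene with a single probe. Such settings changed only the filter, the probe rule, the variance model, the groups fitted or arrays at 1, 2 or 4 mg/kg. In each of the 3, all 5 arrays at 8 mg/kg lay below all 5 controls, as for 4.32% of all genes. The median difference of the 6 genes was -0.20 and that of all genes -0.03. Casp2, Casp8 and Casp1 were not called at 8 mg/kg. A moderated F test over the 4 doses, which asks for any difference from control, called none of the 6 (adjusted p = 0.0529 for Casp9, 0.148 for Gsdmd and 0.195 for Casp6 in limma) and 3.14% of all genes. At the lower doses none of the 6 was called. Among all genes, 4 mg/kg called 0.0804%, 2 mg/kg 0.0101% and 1 mg/kg 0%. In bulk liver, fewer cells of a type and less RNA per cell cannot be told apart.

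**Figure D1:**
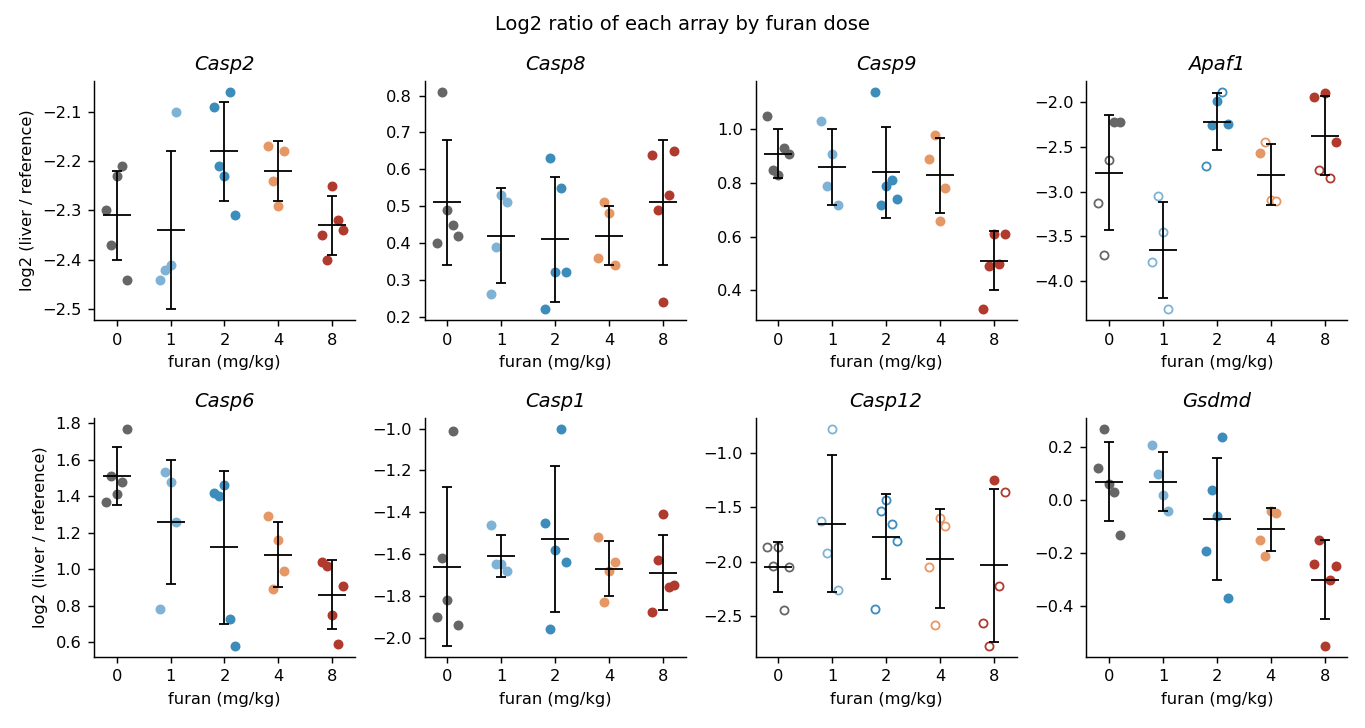
Log2 ratio of liver to reference RNA (vertical axes, each with its own range) on each of the 23 arrays by furan dose (horizontal axes, mg/kg, 0 for corn oil) for the 8 genes; bars give the group mean and SD, and open circles mark arrays on which the probe was not well above background. The 5 arrays at 8 mg/kg lie between 0.33 and 0.61 for Casp9, below every other array, whereas the groups of Casp2, Casp8 and Casp1 overlap.

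Casp9, the initiator of the mitochondrial pathway, overlapped between controls and the 3 lower doses and was lower at 8 mg/kg. In controls its log2 ratios were 1.05, 0.85, 0.83, 0.93 and 0.91. At 1 mg/kg they were 1.03, 0.79, 0.91 and 0.72, at 2 mg/kg 1.14, 0.72, 0.79, 0.81 and 0.74, and at 4 mg/kg 0.89, 0.98, 0.66 and 0.78. At 8 mg/kg they were 0.33, 0.49, 0.61, 0.50 and 0.61. All 5 arrays at 8 mg/kg were below the lowest of the 18 others, which was 0.66, a separation shown by 0.291% of all genes tested. The group mean fell from 0.91 ± 0.09 (SD, n = 5) in controls to 0.51 ± 0.11 (SD, n = 5) at 8 mg/kg. The log2 difference was -0.40 ± 0.09 (SE; 95% interval -0.59 to -0.22; limma adjusted p = 0.00770), which put the level at 75.7% of control.

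The largest step between the Casp9 means of neighbouring doses was that from 4 to 8 mg/kg. At 4 mg/kg the log2 difference from control was -0.08 ± 0.09 (95% interval -0.28 to 0.11), at 2 mg/kg -0.07 ± 0.09 and at 1 mg/kg -0.05 ± 0.09, with overlapping groups at each. Between 4 and 8 mg/kg the log2 difference was -0.32 ± 0.09 (95% interval -0.52 to -0.12), and the groups did not overlap, as for 1.86% of all genes in that direction. That comparison did not pass the threshold (limma adjusted p = 0.244 over all genes, of which 0.206% were called). The slope on dose was -0.049 ± 0.010 per mg/kg on the log2 scale (limma adjusted p = 0.00227), where 5.07% of all genes had a called slope below 0. Such slopes were called in 3 of the 6 genes. On the 4 slides that held both groups, Casp9 was lower at 8 mg/kg than in controls on 4 of 4, with differences from -0.64 to -0.23. The call at 8 mg/kg was kept under the 15 other settings, of which 1 (Aquantile) cannot change a log ratio and 1 repeats a fit without a single array, and on leaving out each of the 23 arrays in turn, with adjusted p values from 0.00166 to 0.0306.

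Apaf1 encodes the scaffold of the apoptosome, on which Casp9 is activated. Its probe was dim, with a median Cy5 signal of 61.2 against 4511 for the Casp9 probe, signals that do not rank the transcripts. It was well above background on 2 of 5 control arrays, 0 of 4 at 1 mg/kg, 3 of 5 at 2 mg/kg, 1 of 4 at 4 mg/kg and 3 of 5 at 8 mg/kg. Its measured log2 ratios ran from -3.71 to -2.22 in controls and from -2.85 to -1.90 at 8 mg/kg, which overlap. At 1 mg/kg they ran from -4.31 to -3.05, where no array measured the probe above background. No difference or fold is given for Apaf1, since most arrays give only a bound.

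Casp8 starts the death receptor pathway and Casp2 responds to a complex that forms after genotoxic stress or failed division. Casp8 ranged from 0.40 to 0.81 in controls, 0.26 to 0.53 at 1 mg/kg, 0.22 to 0.63 at 2 mg/kg, 0.34 to 0.51 at 4 mg/kg and 0.24 to 0.65 at 8 mg/kg. Every pair of groups overlapped, and the group means spanned 0.10 on the log2 scale. Its difference at 8 mg/kg was -0.01 ± 0.10, with a 95% interval of -0.21 to 0.20. Leaving out slide 3 turned this difference to 0.14, and leaving out control replicate 2, the highest array at 0.81, turned it to 0.07, neither of them called. Casp2 ranged from -2.44 to -2.21 in controls, -2.44 to -2.10 at 1 mg/kg, -2.31 to -2.06 at 2 mg/kg, -2.29 to -2.17 at 4 mg/kg and -2.40 to -2.25 at 8 mg/kg. It was the least variable of the 6, with a residual SD of 0.10 that was lower than that of all but 5.77% of genes tested. Its difference at 8 mg/kg was -0.02 ± 0.07, with a 95% interval of -0.17 to 0.13.

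Casp6, an executioner caspase that cuts lamin A and is also linked to axon pruning, had the largest estimated fall of the 3 called genes. In controls its log2 ratios were 1.37, 1.51, 1.41, 1.48 and 1.77. At 1 mg/kg they were 0.78, 1.53, 1.48 and 1.26, at 2 mg/kg 1.42, 1.40, 1.46, 0.73 and 0.58, and at 4 mg/kg 1.29, 0.89, 1.16 and 0.99. At 8 mg/kg they were 1.04, 1.02, 0.75, 0.59 and 0.91. All arrays at 4 and at 8 mg/kg lay below all 5 controls, whereas single animals at 1 and 2 mg/kg were as low as those at 8 mg/kg. The log2 difference at 8 mg/kg was -0.64 ± 0.17 (SE; 95% interval -1.00 to -0.29; limma adjusted p = 0.0238), or 64.0% of the control level.

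The means of Casp6 followed the order of dose: 1.51 ± 0.16 (SD, n = 5) in controls, 1.26 ± 0.34 (n = 4), 1.12 ± 0.42 (n = 5), 1.08 ± 0.18 (n = 4) and 0.86 ± 0.19 (n = 5) at 1, 2, 4 and 8 mg/kg. The arrays of each pair of neighbouring doses overlapped, and between 4 and 8 mg/kg the difference was -0.22 ± 0.18. At 4 mg/kg the difference from control was -0.43 ± 0.18 (95% interval -0.81 to -0.05; limma adjusted p = 0.497), with groups that did not overlap, as for 2.11% of all genes in that direction. At 2 mg/kg it was -0.39 ± 0.17 (limma adjusted p = 0.515), with overlapping groups. The slope was -0.070 ± 0.019 per mg/kg (limma adjusted p = 0.0206).

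Casp6 also differed by slide. Its deviations from the group means averaged -0.28 on slide 3 and -0.17 on slide 4, against 0.12 to 0.15 on the other 3 slides. The 3 low animals at 1 and 2 mg/kg (0.78, 0.73 and 0.58) were on these slides. The part of the higher hepatocyte and erythrocyte markers of slide 3 in these values was not tested. Within slides, Casp6 at 8 mg/kg was lower than in controls on 4 of 4, with differences from -0.82 to -0.52. The call at 8 mg/kg was lost with the authors' deposited value table (-0.55, limma adjusted p = 0.0616), with no filter on dim probes (-0.64, 0.0552) and without control replicate 5 (-0.58, 0.0618), replicate 3 at 8 mg/kg (-0.62, 0.0549) or replicate 4 at 8 mg/kg (-0.58, 0.0655). The slope was lost with the value table (limma adjusted p = 0.0550) and without replicate 4 at 8 mg/kg (0.0655).

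**Figure D2:**
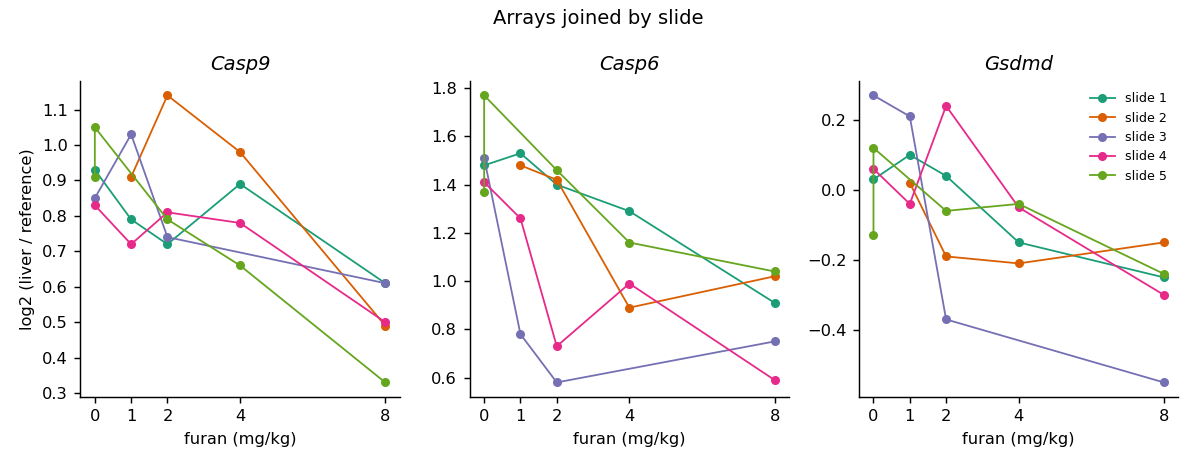
Log2 ratio of Casp9, Casp6 and Gsdmd on each array (vertical axes) against furan dose (horizontal axes, mg/kg), with arrays of the same slide joined by a line; slide 5 held 2 controls. On every slide with a control, the array at 8 mg/kg lies below it, and the Casp6 arrays at 1 and 2 mg/kg on slide 3 lie at 0.78 and 0.58.

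Gsdmd encodes gasdermin D, the pore former of pyroptosis. In controls its log2 ratios were 0.12, 0.27, 0.06, 0.03 and -0.13. At 1 mg/kg they were 0.21, 0.10, 0.02 and -0.04, at 2 mg/kg -0.19, 0.04, -0.06, 0.24 and -0.37, and at 4 mg/kg -0.15, -0.21, -0.04 and -0.05. At 8 mg/kg they were -0.24, -0.15, -0.55, -0.30 and -0.25. The 5 arrays at 8 mg/kg lay below all controls, but by a margin of 0.02, and the arrays at 4 mg/kg overlapped both groups. The log2 difference at 8 mg/kg was -0.37 ± 0.10 (SE; 95% interval -0.58 to -0.16; limma adjusted p = 0.0283), or 77.5% of the control level.

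Gsdmd did not differ from control at 1 mg/kg beyond its interval (0.00 ± 0.11, -0.22 to 0.22), and at 2 and 4 mg/kg the differences were -0.14 ± 0.10 and -0.19 ± 0.11, not called. From 4 to 8 mg/kg it was -0.18 ± 0.11 (limma adjusted p = 0.685). Its slope was -0.047 ± 0.011 per mg/kg (limma adjusted p = 0.00701). The 10 spots of its probe gave a view of the error between spots of an array: their SD within an array had a median of 0.03 and at most 0.08. The residual SD between arrays of the same group was 0.16. Each animal had 1 array, so that value mixes differences between animals with those between arrays. On each of the 10 spots the mean at 8 mg/kg was lower than that of controls, with differences from -0.43 to -0.33. Spots of 1 array share its RNA and hybridisation and are not replicates. Within slides, Gsdmd was lower at 8 mg/kg on 4 of 4, with differences of -0.82 on slide 3 and -0.37 to -0.23 on the others.

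The call of Gsdmd was the least stable of the 3. Of the 15 other settings, 7 lost it, with adjusted p values of 0.0621 to 0.0975 in limma and a difference of -0.37 to -0.26; without slide 3 the difference was -0.26 (adjusted p = 0.0975). It was also lost without control replicate 1 (0.0607), 2 (0.0798) or 3 (0.0524) and without replicate 3 (0.0828) or 4 (0.0554) at 8 mg/kg, by limma adjusted p. The slope was called under all 14 other settings that were fitted and on leaving out each of the 23 arrays. Several of these settings, such as Aquantile, the filter and the probe rule, cannot move the slope itself. Leaving out the neutrophil-rich array repeats 1 of the 23 fits.

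Casp1, the protease of the inflammasome, did not follow the dose. It ranged from -1.94 to -1.01 in controls, -1.68 to -1.46 at 1 mg/kg, -1.96 to -1.00 at 2 mg/kg, -1.83 to -1.52 at 4 mg/kg and -1.88 to -1.41 at 8 mg/kg. The groups overlapped, and the difference at 8 mg/kg was -0.03 ± 0.16 (95% interval -0.37 to 0.31), or 0.13 without control replicate 4, neither called. The highest arrays were control replicate 4 at -1.01 and replicate 4 at 2 mg/kg at -1.00, and all others were at or below -1.41. The same arrays were the highest on 4 tested of 7 markers listed for infiltrating macrophages and monocytes, at 0.74 and 1.16 above the control mean against at most 0.17 elsewhere. That score rests on Itgam, Cd14, Lyz2 and Itgax, since Ccr2, Ly6c2 and Cd68 were not tested. These 2 arrays were also the highest on the 10 Kupffer cell markers, at 0.49 and 0.71 against 0.48 for the next array. Replicate 4 at 2 mg/kg also stood at 2.83 on 4 tested of 9 neutrophil markers, against at most 0.79 elsewhere. The part of these cells in Casp1 was not tested.

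**Figure D3:**
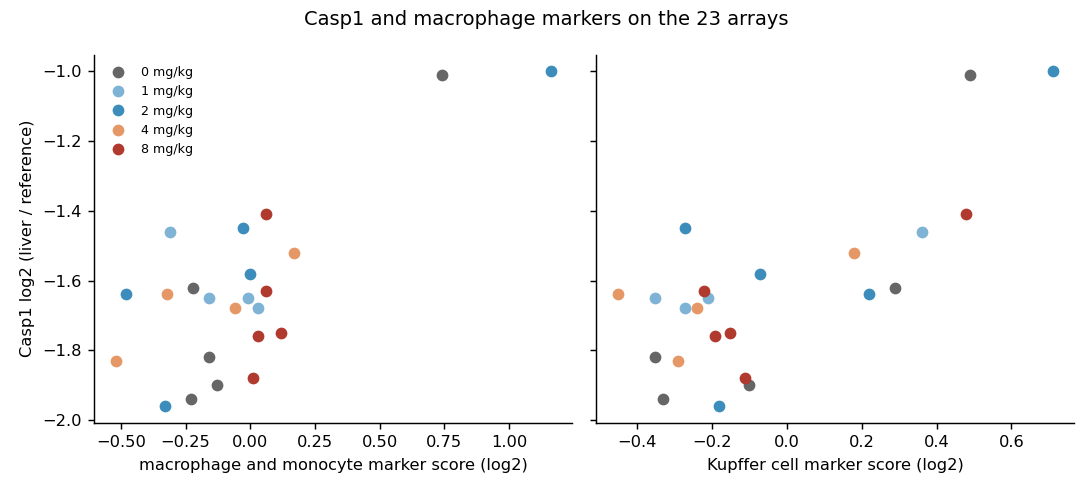
Log2 ratio of Casp1 (vertical axis) against the mean of macrophage and monocyte markers (left) and of Kupffer cell markers (right), each relative to the control mean on the log2 scale, for the 23 arrays coloured by furan dose. The arrays with Casp1 at -1.01 and -1.00 stand apart at scores of 0.74 and 1.16 on the left; on the right they lie at 0.49 and 0.71, with the next array at 0.48.

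At 8 mg/kg the macrophage and monocyte score was 0.01 to 0.12, above 4 of the 5 controls (-0.23 to -0.13) and below control replicate 4 (0.74), a difference that was not tested. None of the 4 tested macrophage and monocyte markers and 0 of the 10 Kupffer cell markers were called. Across the 23 arrays the genes whose pattern was most like that of Casp1, of 12917 compared, were Ctss (Pearson r = 0.96), Ly86 (0.89) and Csf1r (0.88), all known from macrophages, the last being 1 of the 10 Kupffer markers. These correlations describe 23 arrays that share a reference, slides and doses.

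Casp12, a mouse caspase placed at the endoplasmic reticulum, was well above background on 1 of 23 arrays, replicate 3 at 8 mg/kg with a log2 ratio of -1.25. Its other measured ratios ran from -2.77 to -0.78, all with signals not well above background, and no level or fold is given. Its Cy5 signal had a median of 22.7. By the mean of the log2 Cy5 signal, its probe was brighter than 43.9% of probes.

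The 3 genes that were lower at 8 mg/kg were only weakly correlated across animals. Over the 23 arrays the Pearson r was 0.40 for Casp9 with Casp6, 0.43 for Casp9 with Gsdmd and 0.43 for Casp6 with Gsdmd. Once the group means were removed these became -0.09, -0.19 and -0.02. Each also had its own nearest patterns. Casp9 was most like Ube2n (0.89), Dlg3 (0.86) and Eola1 (0.85), Casp6 like Gabarapl1, Ypel3 and Zfp524 (0.89 each), and Gsdmd like Tapbp (0.89), Tcirg1 (0.88) and Zdhhc7 (0.86). After removal of group means the r for these 9 genes ranged from 0.61 to 0.86. The genes most like Casp2 (Myo1d, 0.73) and Casp8 (Ppm1g, 0.74) were less like them. These values describe arrays that share slides and dose groups.

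Lists of genes around the caspases held 87 genes, of which 76 were tested at 8 mg/kg. Of these, 6 were higher, 3 were lower and 67 were not called, beside 4.25% higher and 3.76% lower over all genes. Their median difference was 0.01, against -0.03 over all genes. At 4, 2 and 1 mg/kg 0 of the 76 were called. The lists were also chosen with earlier results of these data known, so their counts are a description.

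Among the other caspases and gasdermins, 1 of 6 tested genes was called. Gsdme, another gasdermin, was higher at 8 mg/kg by 0.61 ± 0.15 (limma adjusted p = 0.0133). Its controls ran from -1.83 to -1.40 and its 8 mg/kg arrays from -1.37 to -0.82, so the groups nearly touched. Gsdmd and Gsdme differed from control in opposite directions. Without slide 3 the Gsdme call was lost (0.53, adjusted p = 0.0722). The inflammatory Casp4 was not called (0.02 ± 0.18, 95% interval -0.35 to 0.38). Cflar, which encodes the decoy of Casp8, was at -0.41 ± 0.14 at 8 mg/kg (limma adjusted p = 0.0880), and its slope of -0.058 ± 0.017 per mg/kg was called (0.0252). Only its brightest probe was read, although other Cflar probes were also well above background on 23 arrays. Its slope was not tried under other settings.

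In the apoptosome, mitochondrial release and inhibitor list, 3 of 14 genes were higher and 0 lower. Of these, Hsp90aa1 (0.94 ± 0.16, limma adjusted p = 9.00e-04) and Hspa4 (0.37 ± 0.06, 9.25e-04) encode general protein chaperones, not parts of the apoptosome. Hspa4 has 3 probes, and their mean gave 0.11 and no call. Birc5, which encodes survivin, a protein of mitosis as well as an inhibitor, was higher by 0.75 ± 0.23 (adjusted p = 0.0498); the mean of its probes gave 0.57 and no call, and the call held under 7 of the 15 other settings (up to 0.168) and in 5 of 23 fits that left out an array. Cytochrome c (Cycs, 0.21 ± 0.09, adjusted p = 0.174), Diablo (0.00 ± 0.07), the caspase inhibitor Xiap (-0.02 ± 0.09) and Birc2 (-0.14 ± 0.09) were not called.

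Among death receptor and Casp2 complex genes, 1 of 13 was higher and 1 was lower. Tnfrsf10b, which encodes the receptor for TRAIL and was well above background on 22 of 23 arrays, ranged from -4.76 to -3.40 in controls, from -3.44 to -2.88 at 4 mg/kg and from -2.15 to -1.44 at 8 mg/kg. Its log2 difference at 8 mg/kg was 2.21 ± 0.20 (limma adjusted p = 1.86e-06), and this was the gene of the 76 that was also called between 4 and 8 mg/kg. The size depended on the signals used: it was 1.00 to 1.01 with uncorrected or normexp median signals and the deposited value table, still called. The cause of this change was not tested. Tnfsf10, which encodes TRAIL itself, was lower at 8 mg/kg, at -1.03 ± 0.19 (limma adjusted p = 0.00177), from 4.26 to 5.32 in controls to 3.48 to 4.14. The receptor was thus higher and its ligand lower at the same dose. The adaptors Fadd (-0.19 ± 0.15), Ripk1 (0.17 ± 0.10), Pidd1 (-0.27 ± 0.15) and Cradd (0.02 ± 0.10) were not called.

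Of 15 inflammasome and pyroptosis genes tested, 1 was lower and 0 were higher. Il18, the interleukin that Casp1 matures, was lower, at -0.39 ± 0.11 (limma adjusted p = 0.0255), with controls from 2.60 to 2.71 and 8 mg/kg arrays from 2.19 to 2.40. That call was lost under 6 of the 15 other settings (adjusted p up to 0.142), and without control replicate 3, 4 or 5 or replicate 2, 3 or 4 at 8 mg/kg (limma adjusted p = 0.0508 to 0.0604). The adaptor Pycard (-0.11 ± 0.11) and Il1b (-0.06 ± 0.47, above background on 12 of 23 arrays) were not called, and Nlrp3 was too dim to be tested. Il1b passed the filter only through the 8 mg/kg group, with 4 of 5 arrays well above background against 3 of 5 in controls, so its difference is poorly measured.

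Among 10 genes that work with Casp12 or in the stress of the endoplasmic reticulum, Capn2, which encodes a subunit of m-calpain, was lower, at -0.27 ± 0.08 (limma adjusted p = 0.0454). Among 12 caspase substrates, Krt18, an epithelial keratin that Casp6 cuts, was higher by 0.52 ± 0.16 (adjusted p = 0.0455), and Parp1 was at -0.04 ± 0.10. The call of Capn2 held under 7 of the 15 other settings (adjusted p up to 0.409 in limma) and in 8 of 23 fits that left out an array. That of Krt18 held under 10 of the 15 (up to 0.140) and in 9 of 23. Of 8 transcription factors tested as reported regulators, 0 were called, with Trp53 at 0.06 ± 0.12.

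**Figure D4:**
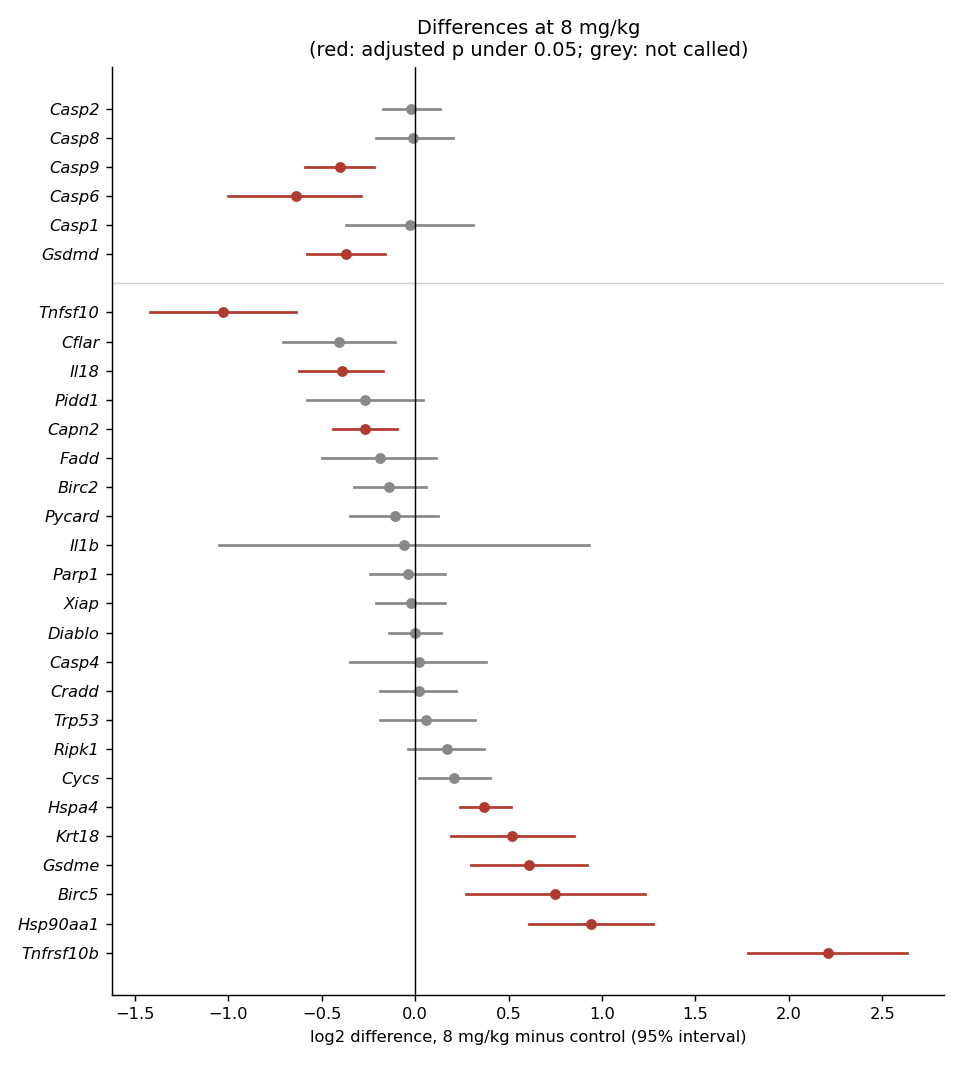
Log2 difference of 8 mg/kg minus control (horizontal axis, point) with its 95% interval (line) for the 6 tested genes (above the grey rule) and for named genes of the surrounding lists (below it, sorted by value); red marks an adjusted p under 0.05 in limma over all 19899 genes. Casp9, Casp6 and Gsdmd lie wholly below 0, the intervals of Casp2, Casp8 and Casp1 span 0, and Tnfrsf10b stands apart at 2.21.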

How the data were processed

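The authors scanned 23 arrays, and the deposited files hold 62976 spots each, extracted with Feature Extraction 10.7.3.1, per the file headers. In the deposited files the processed signals are intensity values that the software had corrected for background and dye; median signals and local backgrounds are raw intensities. The remaining columns are marks, such as signal well above background. The authors also deposited a table of Cy5 to Cy3 ratio values (column medians 0.974 to 0.987), whose processing is not given in the sources used here; per a comparison with the scanner files it lies closest to median signals without background correction (r of 0.995 to 0.996). The series text counts more samples than the 23 analysed here.

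Processed Cy5 over processed Cy3 was taken as log2, with loess within each array (span 0.3, 4 iterations). Spots of a probe were averaged, leaving out marked spots (13 spot values of the Gsdmd probe). Probes well above background in Cy5 on at least 4 arrays of 1 group were kept (25576 of 55681), and each gene was read by its brightest probe. Probe accessions were matched to symbols through a RefSeq table of GRCm38.p6, used for names only (26413 probes, 20018 symbols). Groups were compared in limma 3.58.1 (R 4.3.3) on all 23 arrays, two-sided, with Benjamini-Hochberg adjustment over 19899 genes; residual degrees of freedom were 18 and prior ones 2.32. The code was tested on simulated data. A marker score averages, over the tested genes of a list, each log2 ratio less the control mean. The members and lists were chosen with earlier results of these data known. Named genes are all members, list genes called at 8 mg/kg, a set of main pathway genes whatever their value, and the 3 genes most like each member. Some list genes are not reported here. Alternatives covered background correction, normalization, filter, probe rule, blocks, variance model, the samples fitted and the value table.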

Additional observations from a re-analysis of the deposited data

Results flagged for a closer look

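In 4 of the 40 groups of 4 or 5 arrays (8 genes by 5 doses), 1 array lay far from the others for its group by Dixon's test; chance flags about 1 in 20 groups. Casp2 was at -2.10 in replicate 4 at 1 mg/kg, with the nearest of the others at -2.41. Casp8 was at 0.81 in control replicate 2, against 0.49. Casp9 was at 1.14 in replicate 1 at 2 mg/kg, against 0.81. Casp1 was at -1.46 in replicate 1 at 1 mg/kg, against -1.65. None of these arrays belongs to the group at 8 mg/kg.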

How the results depend on the processing

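For the difference at 8 mg/kg, 15 other settings and 23 fits that each left out an array gave Casp9 between -0.44 and -0.35, Casp6 between -0.69 and -0.55 and Gsdmd between -0.42 and -0.26, with the same sign throughout. Fits that changed only the filter, the probe rule, the variance model or the groups fitted could not move the differences of these genes, each read by a single probe. The same holds for leaving out an array at 1, 2 or 4 mg/kg. The number of these genes called lower was 3, but 1 with the value table and with no filter on dim probes, 2 with uncorrected, normexp or median-centred signals, with only the groups compared and without slide 3, and 1 to 3 on leaving out an array. Of the 15 settings, Aquantile after loess cannot change a log ratio, and leaving out the neutrophil-rich array repeats a fit without 1 array. At 4, 2 and 1 mg/kg and between 8 and 4 mg/kg it was 0 under every setting. Over all genes, 748 were lower at 8 mg/kg, against 374 with uncorrected median signals, 309 with normexp, 409 with median centring, 352 with the value table, 411 with no filter, 1143 and 1216 with the slide as fixed and random block, 471 with only the groups compared and 491 to 867 on leaving out an array. Falling slopes numbered 1009, against 546, 469, 525, 494 and 636 under the first 5 of these, 1511 and 1497 with the slide as fixed and random block and 685 to 1170 on leaving out an array. Whether replicate numbers pair the animals is not given by the labels. Deviations of arrays with the same number correlated at a median of 0.02 (-0.24 to 0.40), against -0.04 for other numbers. Of the pairs with the same number, 14 of 43 were above 0.1, and 7 of 23 arrays correlated best with their own number. These values do not settle the pairing, so a replicate block was also fitted. With the replicate block, Casp9 was at -0.40 (limma adjusted p = 0.0132), Casp6 at -0.64 (0.0342) and Gsdmd at -0.37 (0.0320), and 3 genes were called. Differences that were not called changed sign as follows. At 8 mg/kg, Casp2 was 0.00, 0.01 and 0.03 with uncorrected, normexp and centred signals (slope 0.000, 0.001 and 0.004), Casp8 and Casp1 were 0.04 and 0.02 with centring, and Casp8 was 0.14 without slide 3. Casp1 was 0.06 at 4 mg/kg with centring, -0.03 at 1 mg/kg with the slide as fixed block, -0.00 at 2 mg/kg without the neutrophil-rich array, and 0.02 and 0.05 between 8 and 4 mg/kg with the replicate block and without the 4 pancreas-rich arrays. Gsdmd at 1 mg/kg was -0.02 with the value table and -0.04 with the replicate block, and 0.00 at 2 mg/kg without the pancreas-rich arrays, where the Casp8 slope was -0.002. Casp8 at 1 mg/kg was 0.04 without slide 3, a setting chosen after seeing the data. On leaving out an array, Casp1 ranged from -0.02 to 0.21, -0.00 to 0.29, -0.08 to 0.15 and -0.10 to 0.13 at 1, 2, 4 and 8 mg/kg, from -0.09 to 0.03 between 8 and 4 mg/kg and from -0.017 to 0.001 in slope, Casp2 from -0.05 to 0.00 (slope -0.006 to 0.000), Casp8 from -0.04 to 0.07 (slope -0.001 to 0.012) and Gsdmd at 1 mg/kg from -0.05 to 0.05. The cause of these changes was not tested. Signal over background limits Apaf1 and Casp12.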
